A study of Mus musculus with 6 samples.

Results

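The receptors described here are the mouse genes whose symbol is Gpr followed by a number, with or without a trailing letter. Within this family the genes were picked by name only, from probe sets with a single gene symbol, with the probe set of highest mean over all arrays standing for a gene that has several. The family itself was chosen with earlier results of these data known. The rule gave 69 genes among the 19938 genes tested. Other genes with such a symbol were not analysed here.

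RNA of 6 samples was hybridised to Affymetrix Mouse Gene 1.0 arrays, 1 per sample. C57B/6 mouse leg bone marrow had been grown over 6 days in recombinant GM-CSF at 20 ng/ml, a cytokine that drives myeloid growth and differentiation. By the labels, 3 samples are a dendritic and 3 a macrophage population, both unstimulated. All 6 samples thus share the mouse strain, the growth factor and the time in culture. The labels do not say how the populations were separated or whether each replicate is its own mouse or culture. P-values therefore cover the spread among these arrays, part or all of which may be technical. Values are log2 RMA values. Differences are dendritic minus macrophage means of these values ± SE (n = 3 each), and a gene was called at a Benjamini-Hochberg adjusted p under 0.05 in limma. This fit held no term for replicate number, which was added only in an alternative, the blocked fit. In such bulk samples, fewer cells of a type and less RNA per cell cannot be told apart.

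G protein-coupled receptors cross the membrane with 7 helices and pass the binding of a ligand to G proteins inside the cell. A Gpr number was given to receptors whose ligand was unknown when the gene was found. Several have since been matched to ligands, among them protons, lysophospholipids, oxysterols and fatty acids, and on myeloid cells such receptors are known for guiding migration and sensing the tissue environment. Others are still orphans, and a few are membrane proteins of the Golgi or lysosome that carry the name without being classical receptors.

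Of the 69 receptor genes 19 were called (27.5%), against 21.6% of all genes tested. Higher in dendritic cells were 8 (11.6%), against 9.98% of all genes, and lower were 11 (15.9%), against 11.6% of all genes. A call with at least a 2-fold difference was made for 11 (15.9%), against 10.3% of all genes. Each of these shares was somewhat above that of all genes, in a comparison in which many genes differ. Whether the receptors stand out from all genes was not tested, and the results below concern which receptors differed and by how much. The median difference was -0.01 over the 69 receptors and 0.03 over all genes. Arrays of the populations did not overlap for 24 receptors (34.8%), against 34% of all genes, and the 19 called receptors are among these 24.

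**Figure D1:**
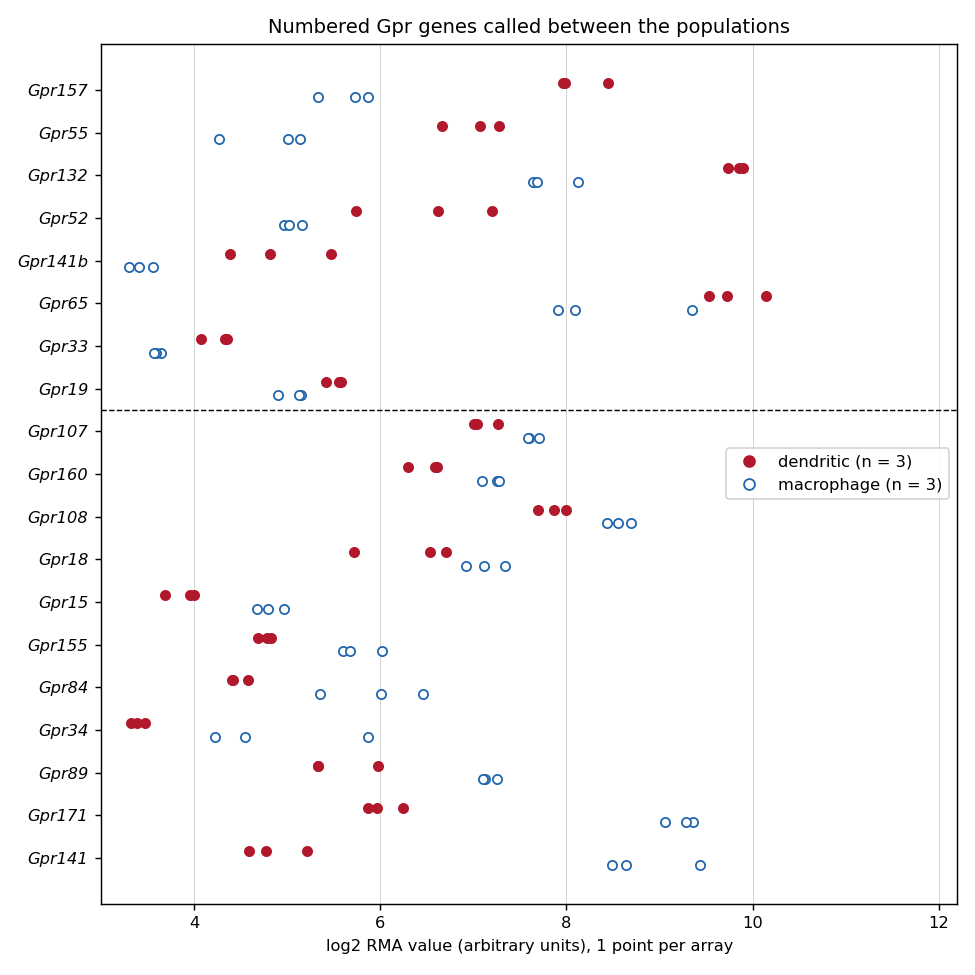
The log2 RMA values of the 19 called numbered Gpr genes, with 1 filled point per dendritic array and 1 open point per macrophage array. Genes above the dashed line were higher in dendritic cells and genes below it were lower. In every row the points of the populations do not overlap.

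The promoter windows of 6 receptors are shown. Gpr157 and Gpr55 had the largest differences to the dendritic side, Gpr132 and Gpr65 are the called proton sensors, and Gpr141 and Gpr141b are neighbouring relatives with opposite differences. Each window holds 250 bases before to 50 bases after the annotated start, read 5′ to 3′ on the gene's strand, from RefSeq on GRCm38.p6. Capitals mark matches on either strand to the motifs searched, which were the PU.1 core GAGGAA, the IRF repeat GAAANNGAA, the AP-1 site TGANTCA, the E-box CACGTG, the NF-kB consensus, the TATA box TATAAA and the GC box GGGCGG.
Gpr157, chr4:150087253-150087552, + strand: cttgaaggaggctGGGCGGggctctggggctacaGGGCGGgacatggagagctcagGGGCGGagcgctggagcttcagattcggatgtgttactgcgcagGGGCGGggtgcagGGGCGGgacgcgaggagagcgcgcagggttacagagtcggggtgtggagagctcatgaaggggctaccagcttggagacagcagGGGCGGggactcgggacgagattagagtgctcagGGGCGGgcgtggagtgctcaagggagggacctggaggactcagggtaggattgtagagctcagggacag
Gpr55, chr1:85961006-85961305, - strand: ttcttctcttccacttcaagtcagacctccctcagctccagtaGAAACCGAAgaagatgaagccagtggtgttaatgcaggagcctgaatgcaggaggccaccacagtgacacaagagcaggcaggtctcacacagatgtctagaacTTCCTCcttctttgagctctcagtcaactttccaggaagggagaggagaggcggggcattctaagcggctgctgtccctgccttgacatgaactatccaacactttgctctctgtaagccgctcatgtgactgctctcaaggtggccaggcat
Gpr132, chr12:112860867-112861166, - strand: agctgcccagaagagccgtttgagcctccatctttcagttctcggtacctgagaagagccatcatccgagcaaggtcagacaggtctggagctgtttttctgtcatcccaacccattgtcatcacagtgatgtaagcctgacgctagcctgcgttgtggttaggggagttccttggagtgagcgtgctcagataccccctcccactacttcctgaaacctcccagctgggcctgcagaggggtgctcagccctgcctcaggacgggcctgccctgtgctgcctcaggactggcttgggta
Gpr65, chr12:98268385-98268684, + strand: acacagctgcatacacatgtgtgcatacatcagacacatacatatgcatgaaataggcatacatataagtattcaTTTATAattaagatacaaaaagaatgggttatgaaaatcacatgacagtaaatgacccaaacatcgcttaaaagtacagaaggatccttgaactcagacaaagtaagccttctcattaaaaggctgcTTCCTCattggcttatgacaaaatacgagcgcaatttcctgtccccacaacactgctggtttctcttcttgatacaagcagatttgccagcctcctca
Gpr141b, chr13:19732902-19733201, - strand: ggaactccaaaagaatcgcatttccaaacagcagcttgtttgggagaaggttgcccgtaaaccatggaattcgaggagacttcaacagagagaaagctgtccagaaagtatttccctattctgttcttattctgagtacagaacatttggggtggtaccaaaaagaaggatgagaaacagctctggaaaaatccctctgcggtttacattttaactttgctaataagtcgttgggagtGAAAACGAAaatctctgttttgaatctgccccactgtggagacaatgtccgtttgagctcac
Gpr141, chr13:19824208-19824507, - strand: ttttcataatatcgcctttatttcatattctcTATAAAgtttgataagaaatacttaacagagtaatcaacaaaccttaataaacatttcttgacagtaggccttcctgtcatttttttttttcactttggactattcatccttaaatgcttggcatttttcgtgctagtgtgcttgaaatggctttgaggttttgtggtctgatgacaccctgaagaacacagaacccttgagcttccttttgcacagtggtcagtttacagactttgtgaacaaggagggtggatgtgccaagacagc

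The Gpr157 window held 7 GC boxes. The Gpr55 window held 1 PU.1 core and 1 IRF repeat, the Gpr65 window 1 PU.1 core and 1 TATA box, the Gpr141b window 1 IRF repeat and the Gpr141 window 1 TATA box. None of these letters occurred in the Gpr132 window, and no matches overlapped in the windows shown. Among all 32851 windows of the table, 28.3% held the PU.1 core, 8.56% the IRF repeat, 13.6% the TATA box and 35.7% the GC box. The AP-1 site was in 7.81%, the E-box in 7.15% and the NF-kB consensus in 4.51%. The 52 receptors with an entry had 68 windows, of which 17 held the PU.1 core, 8 the IRF repeat, 5 the AP-1 site, 2 the E-box, 0 the NF-kB consensus, 7 the TATA box and 26 the GC box. Several windows can belong to 1 receptor, such as 4 to Gpr19. A match is a description of the letters, and whether a factor binds there was not measured. The longest run of bases that the Gpr141 and Gpr141b windows share was 7, and other pairs of the windows shown shared runs of 6 to 10.

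Proton-sensing receptors signal when the fluid around the cell turns acid, and 2 of the 3 measured ones rose in dendritic cells. Gpr132, which also binds oxidised fatty acids, had 9.85, 9.73 and 9.90 on the dendritic arrays, against 8.12, 7.64 and 7.68 on the macrophage arrays. All dendritic values lay above all macrophage values, and Gpr132 was 4.04-fold higher (difference 2.01 ± 0.16, adjusted p = 2.49e-05). Gpr65, a receptor that raises cyclic AMP at acid pH, had 10.14, 9.53 and 9.72 in dendritic cells, against 9.35, 8.09 and 7.91 in macrophages. Macrophage replicate 1 came close to the dendritic range without entering it, and the difference was 1.34 ± 0.35 (2.54-fold, adjusted p = 0.0215). The Gpr65 call was lost, at adjusted p between 0.0551 and 0.0795, without dendritic replicate 1 or 3 or without macrophage replicate 2 or 3. It was also lost when all probe sets were tested.

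The third measured proton sensor, Gpr4, best known from blood vessel endothelium, had 4.87, 5.09 and 5.53 in dendritic cells, against 4.56, 4.71 and 4.76 in macrophages. Its populations did not overlap, and it missed the threshold at a difference of 0.48 ± 0.18 (adjusted p = 0.0926). In the blocked fit, with a term for replicate number, it was called (adjusted p = 0.0322), and also without dendritic replicate 1 (0.63, adjusted p = 0.025). The median difference of the 3 proton sensors was 1.34, which is the Gpr65 value, beside 0.03 over all genes.

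Receptors for lipids and sterols split by gene. Of 9 measured, Gpr55 and Gpr132 were higher in dendritic cells, Gpr34 and Gpr18 were lower and 5 were not called (median difference -0.13, beside 0.03 over all genes). Gpr55, a receptor for lysophosphatidylinositol, had 7.07, 6.66 and 7.28 in dendritic cells, against 4.27, 5.01 and 5.14 in macrophages. The gap between the populations was wider than the range within either, with a 4.58-fold higher value in dendritic cells (difference 2.20 ± 0.25, adjusted p = 0.000219). Gpr34, a receptor for lysophosphatidylserine, had 3.47, 3.39 and 3.32 in dendritic cells, against 5.87, 4.22 and 4.55 in macrophages. The dendritic values were closely spaced, while macrophage replicate 1 stood above the other two. The Gpr34 difference was -1.49 ± 0.36 (2.81-fold lower, adjusted p = 0.0156). It was -0.99 without macrophage replicate 1 (adjusted p = 0.00201), and the call was lost without dendritic replicate 2 or 3 (adjusted p = 0.0554 and 0.0523). The call was also lost when all probe sets were tested.

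Gpr18, for which N-arachidonyl glycine has been reported as a ligand, had 6.53, 6.71 and 5.72 in dendritic cells, against 7.34, 6.92 and 7.11 in macrophages. Dendritic replicate 3 was lowest, and replicate 2 came close to the macrophage range. The difference of -0.81 ± 0.25 was the weakest call among the receptors (adjusted p = 0.0477). It was lost, at adjusted p between 0.0664 and 0.124, without dendritic replicate 3 (difference -0.51) or without any 1 macrophage array. The Gpr18 call was also lost without number 1 of both populations. With all arrays kept, it was lost after another quantile normalization, with 75th percentile centring and when all probe sets were tested. Gpr183, the oxysterol receptor that positions B cells and dendritic cells in lymphoid tissue, had 6.73, 7.60 and 8.07 in dendritic cells, against 7.25, 7.71 and 8.02 in macrophages. The populations overlapped, with a difference of -0.19 ± 0.32 (adjusted p = 0.808) and a 95% interval from -0.93 to 0.54. Differences within that interval are therefore compatible with these values. In both populations replicate 1 was lowest and replicate 3 highest. Gpr174, which like Gpr34 and P2ry10 binds lysophosphatidylserine, averaged 2.45 ± 0.15 in dendritic cells and 2.58 ± 0.14 in macrophages (SD, n = 3 each) and was not called (adjusted p = 0.656).

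Among 5 measured receptors for metabolites and other small ligands, Gpr84 was lower in dendritic cells and 4 were not called (median difference -0.02). Gpr84, a receptor for medium-chain fatty acids that is induced in inflamed macrophages, had 4.42, 4.41 and 4.58 in dendritic cells, against 6.46, 6.01 and 5.35 in macrophages. Dendritic values were nearly equal and macrophage values were spread from 5.35 to 6.46, with no overlap (difference -1.47 ± 0.25, 2.76-fold lower, adjusted p = 0.0024). Gpr35, for which tryptophan metabolites have been reported as ligands, averaged 6.37 ± 0.19 in dendritic cells and 6.65 ± 0.27 in macrophages (SD, n = 3 each), and its populations overlapped (difference -0.29 ± 0.17, adjusted p = 0.336). Gpr39, Gpr142 and Gpr143 had differences of -0.02, -0.01 and 0.07.

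**Figure D2:**
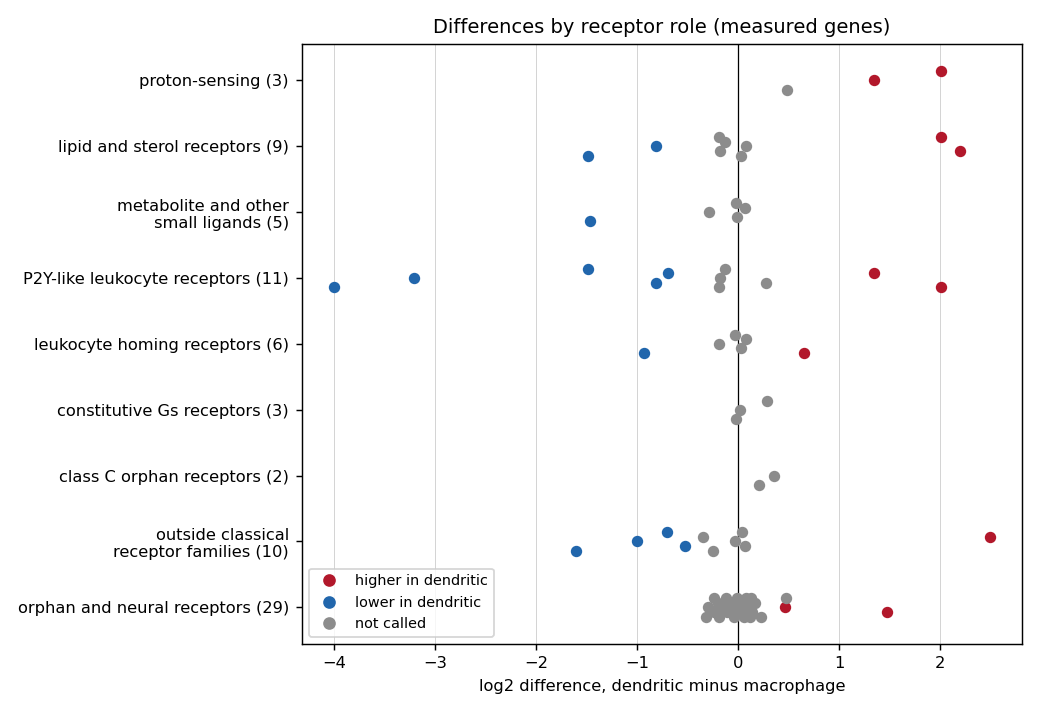
Each point is 1 measured numbered Gpr gene, placed by its log2 difference (dendritic minus macrophage), with rows for receptor roles and the number measured in brackets. A gene with several roles is drawn in each of its rows, and Gpr141b is in none. Both called proton sensors lie to the right, while the P2Y-like row holds the leftmost points, Gpr141 and Gpr171.

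The widest differences to the macrophage side, of Gpr141 and Gpr171, were in a list taken here as P2Y-like receptors of leukocytes. Of 11 measured, Gpr65 and Gpr132 were higher in dendritic cells, Gpr141, Gpr171, Gpr34, Gpr18 and Gpr160 were lower, and 4 were not called (median difference -0.19, beside 0.03 over all genes). Gpr141, an orphan receptor of myeloid cells, had 4.77, 5.21 and 4.59 in dendritic cells, against 9.43, 8.64 and 8.49 in macrophages. The populations were separated by more than 3 log2 units, and Gpr141 was 15.9-fold lower in dendritic cells (difference -4.00 ± 0.26, adjusted p = 8e-06). Gpr171, a haematopoietic receptor of this group, had 5.87, 5.96 and 6.24 in dendritic cells, against 9.06, 9.36 and 9.28 in macrophages. Both populations were tight, and Gpr171 was 9.24-fold lower in dendritic cells (difference -3.21 ± 0.15, adjusted p = 1.18e-06). Gpr160, an orphan receptor, had 6.30, 6.59 and 6.61 in dendritic cells, against 7.09, 7.25 and 7.28 in macrophages. Its populations were separated by a smaller step (difference -0.70 ± 0.14, 1.63-fold lower, adjusted p = 0.00525).

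Gpr141b, a relative of Gpr141 in mouse that was not in this list, went the other way. It had 4.38, 4.82 and 5.47 in dendritic cells, against 3.56, 3.30 and 3.41 in macrophages. The dendritic values were more widely spread and all lay above the macrophage values (difference 1.47 ± 0.25, 2.76-fold higher, adjusted p = 0.00233). In RefSeq's order on chromosome 13, Gpr141b and Gpr141 are direct neighbours on the same strand, with Nme8 before them and Elmo1 and Aoah after. Nme8 differed by 0.04 and was not called, Elmo1, a regulator of Rac in cell movement, was higher in dendritic cells by 0.91, and Aoah, which detoxifies lipopolysaccharide, was lower by -4.82 on the log2 scale. Signs therefore alternate along this stretch. How far the Gpr141 and Gpr141b probe sets share signal from the related transcript was not tested.

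Gpr171 lies on chromosome 3 in a run of P2Y-like genes that includes P2ry14, P2ry13 and P2ry12, in this order in RefSeq, and it overlaps the gene Med12l. P2ry14, the receptor for UDP-glucose, had 5.34, 5.10 and 5.51 in dendritic cells, against 8.85, 8.77 and 8.67 in macrophages (difference -3.45 ± 0.14, adjusted p = 6.87e-07). P2ry13, a receptor for ADP, was lower in dendritic cells by a smaller amount (difference -1.24 ± 0.24, adjusted p = 0.00525). P2ry12, the ADP receptor of platelets and microglia, had a difference of -0.50 ± 0.17 and was not called (adjusted p = 0.0729). Med12l averaged 4.21 ± 0.30 in dendritic cells and 4.32 ± 0.03 in macrophages (SD, n = 3 each), and the flanking genes Clrn1 and Igsf10 differed by 0.04 and -0.04. None of these 3 was called. The called genes of this stretch were thus all receptors.

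**Figure D3:**
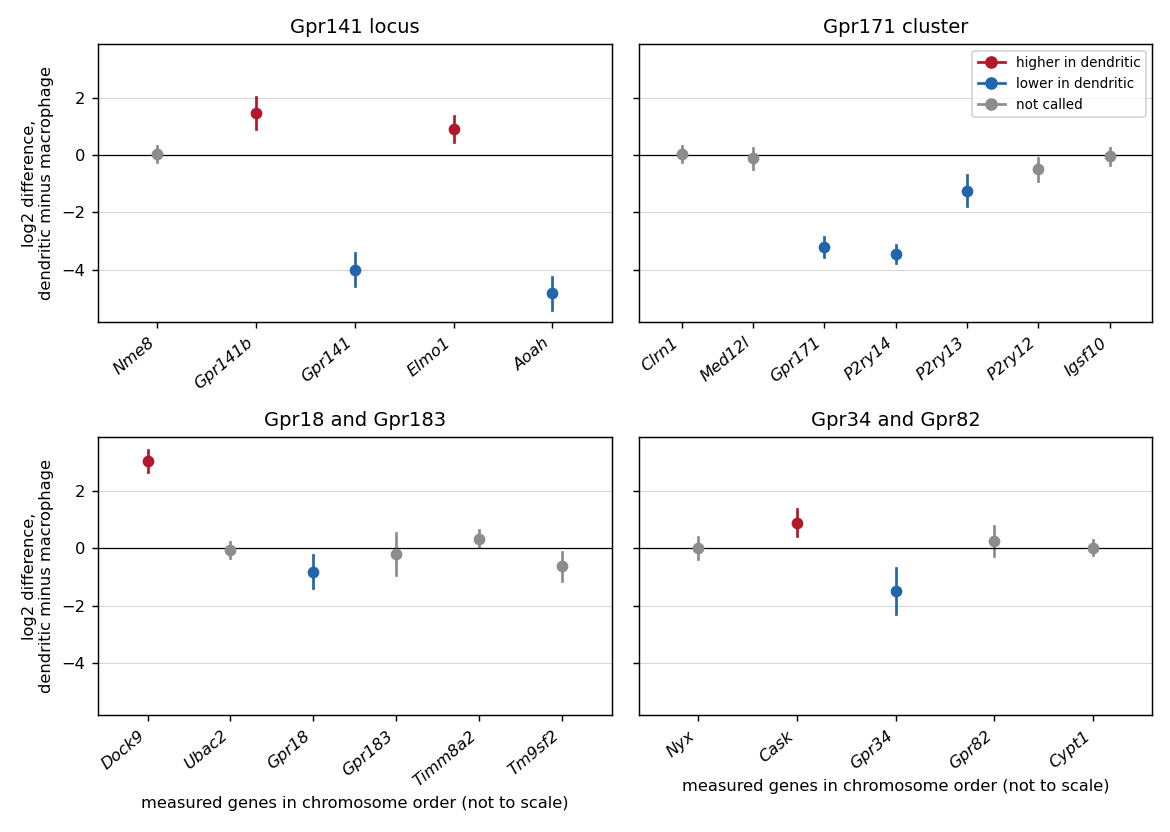
Log2 differences (dendritic minus macrophage, y axis) with 95% intervals of measured genes in RefSeq's chromosome order (x axis, not to scale) around 4 receptor loci. Gpr141 and Gpr141b lie side by side with opposite differences, and in the Gpr171 run Gpr171 and P2ry14 lie lowest, at -3.21 and -3.45, with P2ry13 at -1.24 after them.

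Gpr18 and Gpr183 are neighbours on chromosome 14, and overlap the gene Ubac2 on its opposite strand. Ubac2 averaged 7.05 in dendritic cells and 7.11 in macrophages (difference -0.06 ± 0.13, adjusted p = 0.863). Gpr34 and Gpr82 are neighbours on the X chromosome and overlap the gene Cask, which was higher in dendritic cells (difference 0.90 ± 0.20, adjusted p = 0.011), opposite to Gpr34. Gpr82, an orphan receptor, averaged 3.07 ± 0.23 in dendritic cells and 2.80 ± 0.47 in macrophages (SD, n = 3 each) and was not called (adjusted p = 0.543).

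Receptors linked to leukocyte homing and chemoattraction held 1 called gene in each direction among 6 measured (median difference 0.00). Gpr33, a relative of the chemoattractant receptors, had 4.07, 4.33 and 4.35 in dendritic cells, against 3.64, 3.59 and 3.57 in macrophages. All dendritic values lay above the macrophage values (difference 0.65 ± 0.13, 1.57-fold higher, adjusted p = 0.00582). Gpr15, which guides T cells to the large intestine, had 3.69, 4.0 and 3.96 in dendritic cells, against 4.68, 4.97 and 4.79 in macrophages. The populations were fully separated (difference -0.93 ± 0.14, 1.91-fold lower, adjusted p = 0.00134). Gpr1, Gpr25, Gpr75 and Gpr183 were not called.

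Membrane proteins outside the classical receptor families, many of them in the Golgi or lysosome, numbered 10, of which Gpr157 was higher in dendritic cells, Gpr89, Gpr155, Gpr108 and Gpr107 were lower and 5 were not called (median difference -0.30, beside 0.03 over all genes). Gpr157, an orphan studied in neural progenitors of mice, had 8.45, 7.96 and 7.98 in dendritic cells, against 5.73, 5.33 and 5.87 in macrophages. With a gap of more than 2 log2 units between the populations it had the largest difference to the dendritic side among the 69 receptors (difference 2.49 ± 0.19, 5.6-fold higher, adjusted p = 2.14e-05). Gpr89, a Golgi anion channel that regulates the pH of that organelle, had 5.98, 5.33 and 5.33 in dendritic cells, against 7.12, 7.25 and 7.10 in macrophages. Dendritic replicate 1 was above the other two and still below every macrophage value (difference -1.61 ± 0.19, 3.06-fold lower, adjusted p = 0.000272). Gpr155, a lysosomal cholesterol sensor, had 4.78, 4.83 and 4.69 in dendritic cells, against 6.02, 5.60 and 5.67 in macrophages. The dendritic values were the tighter ones (difference -1.0 ± 0.15, 1.99-fold lower, adjusted p = 0.00106).

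The relatives Gpr107 and Gpr108, both resident in the Golgi, moved the same way by smaller amounts. Gpr108 had 7.87, 7.69 and 7.99 in dendritic cells, against 8.43, 8.55 and 8.69 in macrophages, a difference of -0.71 ± 0.14 (adjusted p = 0.00491). Gpr107 had 7.26, 7.04 and 7.01 in dendritic cells, against 7.60, 7.70 and 7.59 in macrophages, a difference of -0.53 ± 0.13 (adjusted p = 0.0154). Neither pair of populations overlapped, and the Gpr107 call was lost without dendritic replicate 2 or 3 or macrophage replicate 2 (adjusted p between 0.0547 and 0.0794). Centring arrays on their 75th percentile ended the Gpr107 call too. Gpr137, a lysosomal membrane protein, had 5.96, 6.00 and 6.12 in dendritic cells, against 6.26, 6.43 and 6.43 in macrophages, and missed the threshold without overlap (difference -0.35 ± 0.12, adjusted p = 0.0788). Its relative Gpr137b had 7.36, 6.84 and 7.17 in dendritic cells, against 7.68, 6.85 and 6.72 in macrophages. The populations overlapped (difference 0.04 ± 0.25, adjusted p = 0.957, 95% interval -0.53 to 0.61).

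Orphan and neural receptors were the largest group, with 29 measured genes, of which 2 were higher in dendritic cells and 27 were not called (median difference 0.06). Gpr52, a receptor of the striatum that signals through Gs, had 6.62, 7.20 and 5.74 in dendritic cells, against 4.97, 5.16 and 5.02 in macrophages. Dendritic values were widely spread, and the lowest still lay above the macrophage values (difference 1.47 ± 0.31, 2.77-fold higher, adjusted p = 0.00793). In RefSeq Gpr52 overlaps Rabgap1l, a regulator of Rab proteins, which averaged 8.35 in dendritic cells and 5.39 in macrophages (difference 2.96 ± 0.20, adjusted p = 1.17e-05). Gpr19, an orphan best known from brain, had 5.42, 5.56 and 5.58 in dendritic cells, against 4.90, 5.15 and 5.13 in macrophages. The step was small and without overlap (difference 0.46 ± 0.13, 1.38-fold higher, adjusted p = 0.0311). The Gpr19 call ended without dendritic replicate 2 or 3 or without any 1 macrophage array (adjusted p between 0.064 and 0.104). It also ended with a mean-variance trend in limma and when all probe sets were tested. Gpr19 overlaps Crebl2, which was higher in dendritic cells too (difference 1.69 ± 0.18, adjusted p = 0.000135). Whether transcripts of the overlapping gene add to the signal of Gpr52 or Gpr19 was not tested.

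None of the 3 measured receptors that signal through Gs without a ligand was called, with differences of 0.28 (Gpr3), 0.02 (Gpr6) and -0.02 (Gpr12) and an unadjusted p of at least 0.125. The 2 measured class C orphans, Gpr158 and Gpr179, had differences of 0.35 and 0.21 and were not called (unadjusted p = 0.0479 and 0.188). Without dendritic replicate 1 Gpr158 was called (0.48, adjusted p = 0.0429). Over all receptors, 50 were not called, with differences from -0.35 to 0.48, of which 44 lay within 0.3 of 0. Their 95% intervals had a median half-width of 0.37 log2 units. Populations did not overlap for 5 of the 50, namely Gpr4, Gpr101, Gpr137, Gpr146 and Gpr180. Gpr21, with a difference of 0.47 ± 0.24, was called in the blocked fit alone among the alternatives (adjusted p = 0.0461, against 0.235 without the replicate block).

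**Figure D4:**
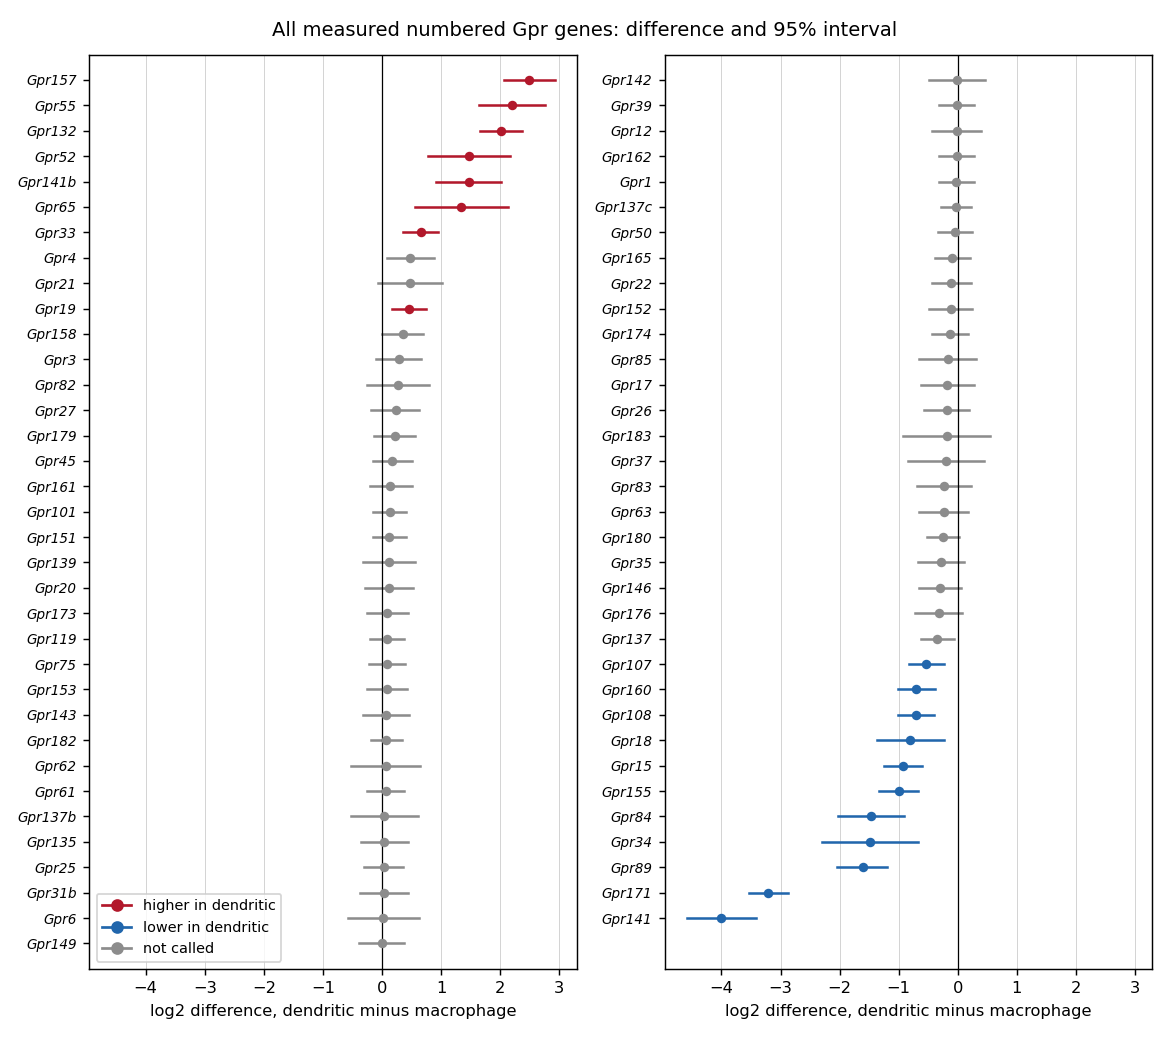
The log2 difference (dendritic minus macrophage, x axis) and its 95% interval for each of the 69 measured numbered Gpr genes, ordered from the largest difference at the upper left to the lowest at the lower right. The 8 genes in red and the 11 in blue were called, and the other 50, in grey, lie between -0.35 and 0.48.

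Calls were more frequent among probe sets with higher levels. The mean over all 6 arrays was above 5.14, the median of all genes, for 27 receptors, and 15 of these were called, while 4 of the 42 at or under it were called. Among all genes 37.7% of those above and 5.54% of those at or under this level were called. The median level was 4.64 over the receptors, and whether their shares differ from those of all genes at like level was not tested. Means of the receptors ran from 2.52 to 9.12, and 21 were under 4. The files used hold no detection calls, so a low value cannot be told apart from background. RMA compresses differences between dim probe sets, and folds with a dim population are values on this scale.

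The genes that carry the signal on from such receptors were taken as lists, and the first 4 lists each held called genes in both directions. Of 15 measured G alpha subunits 3 were higher in dendritic cells, 3 were lower and 9 were not called (median difference 0.15). Gna15, a Gq-class subunit of blood cells, had 4.17, 4.27 and 3.93 in dendritic cells, against 5.98, 6.57 and 6.54 in macrophages (difference -2.24 ± 0.18, adjusted p = 3.28e-05). Gnaq, of the same class, was lower by a smaller step (difference -0.65 ± 0.16, adjusted p = 0.0161), as was Gna12 (difference -0.51 ± 0.13, adjusted p = 0.0192). Higher were the inhibitory subunit Gnai3 (difference 0.89 ± 0.12, adjusted p = 0.000831), Gna13 (difference 0.57 ± 0.12, adjusted p = 0.00912), and Gnao1 (difference 0.45 ± 0.13, adjusted p = 0.0322). The Gna13 call was lost without macrophage replicate 2 (adjusted p = 0.0516) and the Gnaq call without dendritic replicate 3 (0.0646). Gna12 was no longer called without dendritic replicate 2 (adjusted p = 0.0602), without macrophage replicate 1 (0.0666) and with arrays centred on their 75th percentile (0.0769). Its call was also lost without number 1 of both populations (adjusted p = 0.057). The Gnao1 call was lost without dendritic replicate 2 or 3 or any 1 macrophage array (adjusted p between 0.0671 and 0.107). It was also lost when all probe sets were tested.

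Among 17 G beta and gamma subunits 1 was higher, 4 were lower and 12 were not called (median difference 0.04). The beta subunit Gnb4 had 9.68, 9.89 and 9.93 in dendritic cells, against 4.51, 5.11 and 4.91 in macrophages. This gap of more than 4 log2 units made it 31.8-fold higher in dendritic cells (difference 4.99 ± 0.17, adjusted p = 3.41e-07). The gamma subunits Gng2 (difference -2.01 ± 0.21, adjusted p = 0.000139), Gng11 (-1.25 ± 0.34, adjusted p = 0.0275) and Gng12 (-0.91 ± 0.21, adjusted p = 0.0122) were lower. The Gng11 call was lost without dendritic replicate 2 or 3 or macrophage replicate 1 or 2 (adjusted p up to 0.1), and the Gng12 call without macrophage replicate 2 (0.0516). Testing all probe sets also ended the Gng11 call.

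Adenylyl cyclases make cyclic AMP and phospholipases C beta release calcium signals, and 1 of 13 was higher, 4 were lower and 8 were not called (median difference -0.15). The cyclase Adcy6 had 8.73, 8.40 and 8.35 in dendritic cells, against 4.19, 4.32 and 4.21 in macrophages. It was 19.1-fold higher in dendritic cells (difference 4.25 ± 0.14, adjusted p = 3.24e-07), while the cyclases Adcy7 (-1.79 ± 0.16, adjusted p = 6.22e-05) and Adcy9 (-1.04 ± 0.14, adjusted p = 0.000535) were lower. Plcb2, the phospholipase typical of blood cells, had 5.44, 6.89 and 7.04 in dendritic cells, against 8.07, 8.84 and 9.01 in macrophages (difference -2.18 ± 0.41, adjusted p = 0.00446). Replicate 1 was the lowest Plcb2 value in both populations.

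Receptor kinases and arrestins end the signal of an active receptor. In a list of these and of arrestin-domain genes, of 11 measured 3 were higher, 2 were lower and 6 were not called (median difference 0.10). The arrestin-domain gene Arrdc3 had 5.83, 5.01 and 4.71 in dendritic cells, against 9.31, 7.99 and 8.54 in macrophages (difference -3.43 ± 0.36, 10.8-fold lower, adjusted p = 0.000144). The kinases went in opposite directions, with Grk3 higher (difference 1.37 ± 0.17, adjusted p = 0.000353) and Grk5 lower (difference -0.95 ± 0.15, adjusted p = 0.00187). Arrb2, which encodes beta-arrestin 2, was higher by 0.70 ± 0.13 (adjusted p = 0.00415), and Arrdc1 by 0.95 ± 0.18 (adjusted p = 0.0042).

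**Figure D5:**
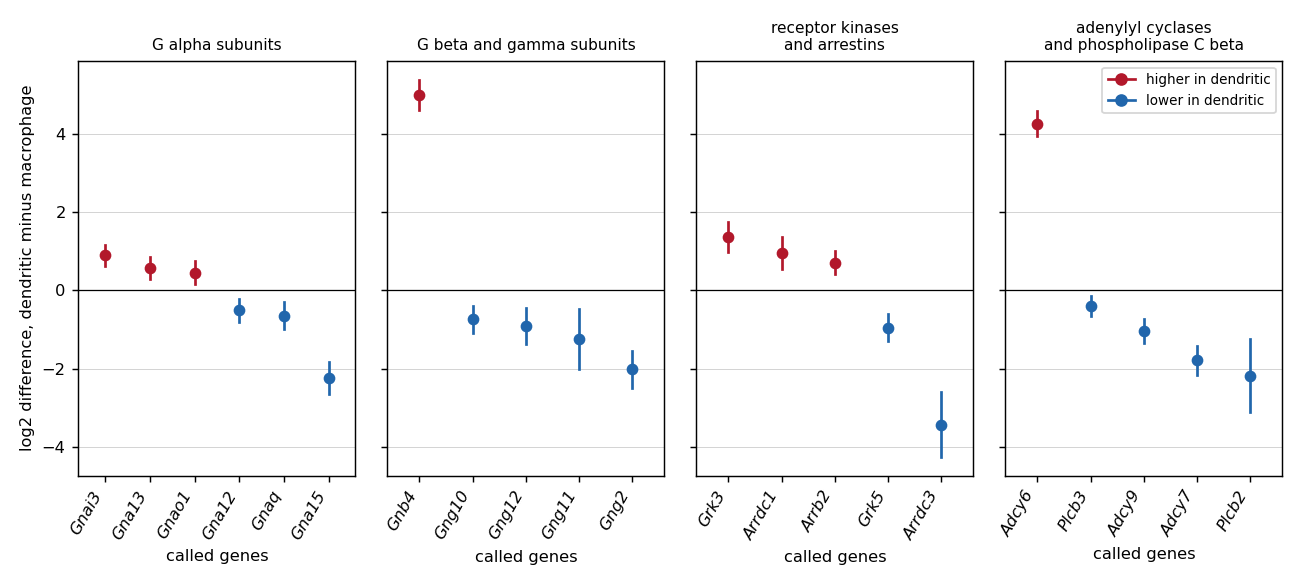
Log2 differences (dendritic minus macrophage, y axis) with 95% intervals of the called genes of 4 signalling lists (x axis). Gnb4 and Adcy6 lie highest, at 4.99 and 4.25, and every panel holds genes in both directions.

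Ligand enzymes of the oxysterol receptor Gpr183 held 1 called gene of 5 measured (median difference 0.34). Hsd3b7, which breaks down its ligand, had 6.92, 7.23 and 7.21 in dendritic cells, against 6.23, 6.49 and 6.21 in macrophages (difference 0.81 ± 0.14, adjusted p = 0.00317). Gpr1, one of the receptors for chemerin, had a difference of -0.03 ± 0.13 and was not called (adjusted p = 0.946). Of the 3 other chemerin genes measured 1 was called, the main receptor Cmklr1. It had 4.37, 4.79 and 4.72 in dendritic cells, against 8.16, 8.17 and 7.54 in macrophages, with no overlap (difference -3.32 ± 0.20, 10-fold lower, adjusted p = 5.53e-06).

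Related receptors that have since been renamed were taken as a list of 38 measured genes, 34 of which have a Gpr number among their RefSeq synonyms. In this list 2 were higher, 3 were lower and 33 were not called (median difference 0.02). Adgrg6, an adhesion receptor known from myelination, had 9.37, 9.37 and 9.48 in dendritic cells, against 5.10, 4.53 and 4.06 in macrophages. It was 28.7-fold higher in dendritic cells (difference 4.84 ± 0.23, adjusted p = 1.43e-06). P2ry10, a receptor for lysophosphatidylserine, was 8.08-fold higher (difference 3.01 ± 0.28, adjusted p = 6.55e-05). Next to it on the X chromosome, P2ry10b, which was not in this list, went the other way (difference -2.43 ± 0.22, adjusted p = 6.36e-05). Hcar2, the niacin receptor, had 3.74, 4.43 and 4.20 in dendritic cells, against 5.02, 6.82 and 5.86 in macrophages (difference -1.78 ± 0.39, adjusted p = 0.0101). The other lower ones in the list were P2ry14 and P2ry13 of the Gpr171 run.

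The labels were set against marker genes. Of 10 dendritic markers 8 were higher in dendritic cells, 1 (Kmo) was lower and 1 was not called, and all 10 macrophage markers measured were lower. Their mean ran from 5.13 to 5.19 on dendritic arrays and from 9.91 to 10.28 on macrophage arrays. Of 10 neutrophil markers 2 (Csf3r and Mpo) were lower and 8 were not called. The neutrophil mean ran from 6.07 to 7.20 on dendritic arrays and from 6.52 to 7.79 on macrophage arrays, and replicate 1 was highest in both. The mean of 8 mast cell and basophil markers ran from 4.61 to 5.02 on dendritic arrays and from 4.10 to 4.41 on macrophage arrays, and that of 4 B cell markers from 4.34 to 4.59 and from 3.91 to 4.30. Neither pair of ranges overlapped, and 1 gene of each list was called, Kit and Cd79a, both higher in dendritic cells. The means of 7 T and NK cell markers (3.60 to 3.88 on dendritic and 3.77 to 3.93 on macrophage arrays) and of 3 erythroid markers (4.40 to 4.64 and 4.24 to 4.54) overlapped. When number 1 was left out of both (an alternative added once the values had been seen), 20 receptors were called, 18 of them among the 19. Gpr65 then differed by 1.62 (adjusted p = 6.81e-05), Gpr34 by -1.04 (adjusted p = 0.00124) and Gpr183 by -0.03 (adjusted p = 0.94). The part of the other markers in the receptor results was not tested.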

How the data were processed

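Bone marrow cells cultured with GM-CSF were profiled on 6 arrays, 3 of a dendritic and 3 of a macrophage population as the labels give them. The submitters' processing notes name RMA and R 3.0.2, with which the authors made the deposited log2 values. RMA corrects background, normalizes by quantiles and summarizes each probe set. Nothing used here states the probe set definition, a filter or a genome build. The table holds 35556 probe sets, with values from 1.29 to 13.4 and array medians between 4.79 and 4.96.

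Names came from the gene table of the platform, in which 21789 had exactly 1 symbol, 1621 had several and 12146 were not listed. Symbols were checked by Entrez identifier against RefSeq GRCm38.p6, which held 21698 of them and changed 0. Of several probe sets of a gene (999 genes), the one with the highest mean was kept. The main test was limma 3.58.1 in R 4.3.3 (lmFit and eBayes, 2-sided) over all 19938 genes with 1 term for population, no filter and Benjamini-Hochberg adjustment. Tables and figures were made with Python 3.11.15, pandas 2.3.3 and matplotlib 3.10.9. The number of arrays limits the precision.

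Named are all called receptors, the 10 with the highest mean, those with an adjusted p between 0.05 and 0.1, and for each signalling list up to 3 called genes with the largest difference in each direction. Neighbouring genes and a few receptors given as examples were named after their values were seen. The receptors, lists and motifs were chosen with earlier results of these data known. After subtracting each population's mean, arrays with the same number correlated at 0.385, 0.147 and 0.272. Dendritic replicate 2 correlated at 0.155 with macrophage replicate 3, and dendritic replicate 3 at 0.128 with macrophage replicate 2. These correlations do not settle whether the replicate numbers in the titles pair the samples, so the pairing is an assumption. Only the replicate block uses this pairing. The SE, p-values and calls of the main fit ignore it. On data simulated for dendritic minus macrophage over 19938 genes, limma found 1 of 67 genes given a difference of 0.5 log2 units, 36 of 67 given 1 and 63 of 66 given 2, and 4 of its 104 calls were false. Only those genes were changed, a far smaller share than the 21.6% of all genes called in the real data. The adjustment is stricter where few genes differ, so these shares do not give the power of the real comparison. Alternatives were another quantile normalization, centring on the 75th percentile, a filter at the median level, a replicate block, means of probe sets, all probe sets, array weights, a mean-variance trend, each array left out and, chosen after seeing the data, number 1 of both populations left out.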

Additional observations from a re-analysis of the deposited data

How the results depend on the processing

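Across the 15 alternatives the number of called receptors ran from 14 to 22, against 19, and every count of receptors or of all genes in either direction stayed within 1.5 times its value. Of the 19 called receptors 14 were called under every alternative that held them. The other 5 were lost at least once, and of their alternatives Gpr18 was called in 7 of 15 (adjusted p 0.0197 to 0.124), Gpr19 in 8 of 15 (0.00909 to 0.104), Gpr65 in 10 of 15 (6.81e-05 to 0.0795), Gpr107 in 11 of 15 (0.00128 to 0.0794) and Gpr34 in 11 of 14 (0.00124 to 0.0554). Some of these losses came in limma fits with arrays left out, which hold fewer samples. Others came with all 6 arrays. Gpr18 was lost under another quantile normalization, and Gpr18 and Gpr107 with 75th percentile centring. Testing all probe sets lost Gpr18, Gpr19, Gpr34 and Gpr65, and a mean-variance trend lost Gpr19. The cause was not tested for any of these losses. The filter at the median level left out Gpr141b, Gpr15, Gpr33 and Gpr34 with their levels. With the replicate block 21 receptors were called, all 19 and in addition Gpr4 (adjusted p = 0.0322) and Gpr21 (adjusted p = 0.0461), and the block ended no receptor's call. Array weights added Gpr137 (adjusted p = 0.0255), Gpr158 (0.0437) and Gpr4 (0.0113). Values near 0 changed sign. Gpr183 was 0.02 with array weights and -0.49 to 0.18 with single arrays left out, and Gpr137b was -0.14 to 0.34 with single arrays left out. Among the overlapping genes, Med12l was -0.25 to 0.05 and Ubac2 -0.13 to 0.01 with single arrays left out. Med12l was 0.04 without number 1 of both populations, and Ubac2 was 0.03 after another quantile normalization and 0.04 with 75th percentile centring. None of these 4 genes was called in any alternative. With 3 arrays per population and no detection calls, small differences of dim receptors were not resolved.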
